A study of Homo sapiens with 18 samples.

Results

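The genes described here are a module of 38 listed symbols that encode glucose and lactate transporters, glycolytic enzymes, classical hypoxia targets, oxygen-sensing hydroxylases and the hypoxia-inducible factor (HIF) alpha subunits. They were taken by symbol from the table of counts per gene. Rows were found for 37 of the 38 among 35025 rows in the table, and BNIP3 was not analysed here. CA9, a cell-surface carbonic anhydrase and hypoxia marker, was below the filter on low counts, so 36 of the 38 members were tested. Levels are counts per 1000000 counts of the library (CPM), given as mean ± SD over 3 libraries a group.

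The libraries were bulk RNA-seq of foregut endoderm differentiated from H1, a wild-type human embryonic stem cell line, so all groups share 1 genetic background. The 6 groups of 3 libraries were day 9 cells given retinoic acid (RA) and then CHIR99021 with BMP4, day 9 cells given CHIR99021 with BMP4 alone, day 9 cells given RA alone, untreated day 9 cells, day 6 cells given RA, and untreated day 6 cells. All-trans RA was given at 2 µM for 24 h between day 5 and day 6, and from day 6 to day 9 the cells received 2 µM CHIR99021 together with 50 ng/mL BMP4, 72 h in all. Day 9 cells described as given RA alone had therefore been without added RA since day 6. CHIR99021 inhibits the kinase GSK3 and so activates Wnt signalling, and the submitters state that it was combined with BMP4 to imitate signals that induce respiratory fate. The labels do not say whether replicates came from separate differentiations, so a p-value here reflects only how much these libraries varied, which may be technical.

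Glycolysis splits glucose into pyruvate. Hexokinases trap the sugar in the cell, phosphofructokinases commit it to the pathway, and lactate dehydrogenases exchange pyruvate and lactate. Oxygen-dependent prolyl hydroxylases (EGLN1, EGLN3) mark HIF alpha subunits for destruction, and under low oxygen the stabilised subunits pair with ARNT and switch on most glycolytic enzymes together with VEGFA, ADM and the other targets listed here. HIF is controlled mainly at the protein level, which RNA-seq does not measure. Pluripotent cells are known for high glycolytic flux, and retinoic acid acts through nuclear receptors that bind DNA directly.

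HIF binds a core of the letters ACGTG or GCGTG. The promoters of 4 members that moved with RA are shown with that core, read on both strands, in capitals. Each is the 250 bases before the RefSeq start of the gene on GRCh38.p14, plus strand: LDHA at chr11:18394313-18394562, HK2 at chr2:74833877-74834126, PFKFB3 at chr10:6144671-6144920 and ADM at chr11:10304823-10305072.
LDHA: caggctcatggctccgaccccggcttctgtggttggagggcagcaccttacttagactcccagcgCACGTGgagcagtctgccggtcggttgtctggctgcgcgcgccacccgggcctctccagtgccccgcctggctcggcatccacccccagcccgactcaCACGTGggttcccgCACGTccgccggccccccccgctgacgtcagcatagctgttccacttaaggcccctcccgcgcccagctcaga
HK2: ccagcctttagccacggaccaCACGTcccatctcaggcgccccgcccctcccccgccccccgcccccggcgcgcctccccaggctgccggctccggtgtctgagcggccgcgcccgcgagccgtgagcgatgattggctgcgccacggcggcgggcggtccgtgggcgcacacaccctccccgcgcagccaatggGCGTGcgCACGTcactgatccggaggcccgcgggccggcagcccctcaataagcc
PFKFB3: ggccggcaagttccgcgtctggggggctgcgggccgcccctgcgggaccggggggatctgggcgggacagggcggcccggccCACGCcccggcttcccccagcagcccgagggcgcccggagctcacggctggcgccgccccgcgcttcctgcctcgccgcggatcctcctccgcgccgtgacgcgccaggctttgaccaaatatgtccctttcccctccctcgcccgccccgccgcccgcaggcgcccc
ADM: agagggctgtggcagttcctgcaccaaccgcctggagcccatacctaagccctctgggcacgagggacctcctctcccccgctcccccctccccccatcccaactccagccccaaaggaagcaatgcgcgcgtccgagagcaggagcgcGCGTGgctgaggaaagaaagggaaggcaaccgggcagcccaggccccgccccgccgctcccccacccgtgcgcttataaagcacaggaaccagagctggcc

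LDHA, which encodes the lactate dehydrogenase subunit favouring lactate formation, held 5 core matches. Matches on opposite strands overlap at 2 of its sites, which is why those sites show 6 capitals. HK2, an inducible hexokinase, held 3, while PFKFB3, which makes the activator of phosphofructokinase, and ADM, the vasodilator peptide adrenomedullin, held 1 each. A RefSeq promoter was matched for 32 of the 37 members, and 21 of the 32 (65.6%) held at least 1 core, against 11763 of all 27305 promoters of that length (43.1%). The letters AGGTCA, the core to which retinoic acid receptors bind, were found on either strand in 2 of the 32 (6.25%) and in 12.1% of all promoters. The windows of PFKP, PDK1, EGLN3, LDHB and SLC2A1 held no HIF core. Some windows did not lie before the gene's RefSeq span but were counted with the others. Those of PFKP, GPI, PFKM, PFKFB4, GAPDH, PKM, SLC16A3, P4HA2 and KDM3A lay inside that span, and that of TPI1 partly so. These matches describe letters and do not show binding.

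Libraries held between 5.79 and 25.37 M counts (M, 1000000), and 15531 genes passed the filter. Summed CPM of 9 foregut endoderm markers, FOXA2 and SOX17 among them, lay between 873 and 1951 in every library, with none at 0. CDH1 and EPCAM are general epithelial genes among the 9, and the defining factors varied widely between groups, FOXA2 from 18.9 to 235 CPM and SOX17 from 2.61 to 22.7 CPM by group mean. Of the 9, 6 rose and 1 fell with RA at day 6, 7 rose and 1 fell with RA at day 9, and 6 rose and 1 fell with RA before CHIR99021 and BMP4. In untreated cells, 1 of the 9 was higher and 6 were lower at day 9 than at day 6. The part of these markers in the members' changes was not tested. The libraries also differed in a feature here called read kind, which no label names and which nearly coincides with treatment. Its 70 defining genes, 66 with "pseudogene" in their names, were at least 10-fold apart between all treated libraries and 4 of the 6 untreated ones. An index of read kind was computed from the levels of these genes, and it is not a measured share of reads. It was 98.0% to 98.5% in all treated libraries and 1.2% to 1.9% in untreated day 9 libraries. It was 25, 1 and 42% in untreated day 6 replicates 1, 2 and 3. The genes were chosen on all libraries except untreated day 6 replicates 1 and 3. Values near the ends in the libraries used for that choice therefore follow from it. No member was among the 70 genes. Comparisons of a treated with an untreated group therefore mix read kinds. Within groups the index varied mainly among the untreated day 6 libraries. A fit with the index as a covariate therefore draws its adjustment mainly from those libraries. Such a fit cannot settle how far read kind shaped the other comparisons. The sources used here do not give the origin of read kind, and whether it is technical was not tested. CHIR99021 with BMP4 after RA, RA before CHIR99021 with BMP4, and day 9 against day 6 after RA were each compared within the same kind.

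**Figure D1:**
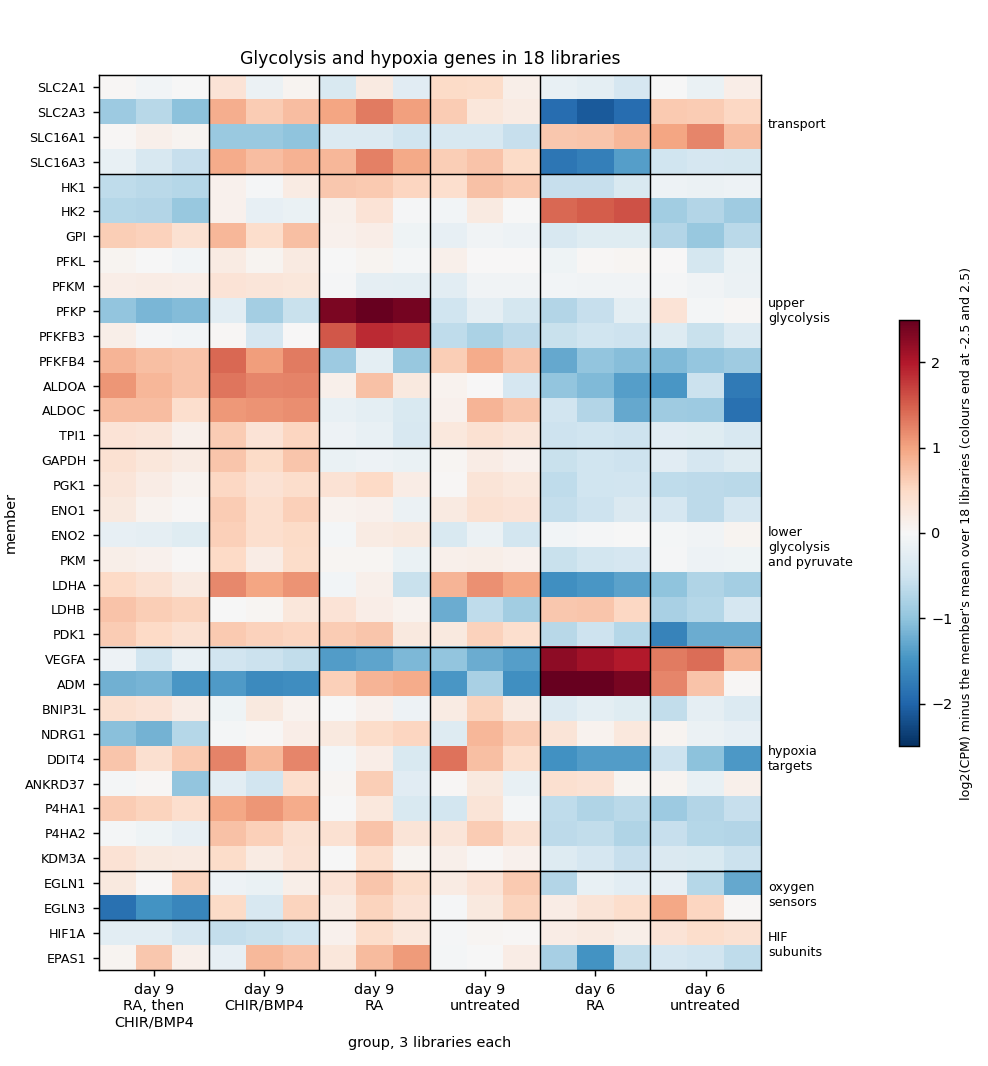
Levels of the 36 tested members (rows, by role) in 18 libraries (columns, 3 a group), as log2(CPM) minus the member's mean over all libraries; red is above and blue below that mean. PFKP and PFKFB3 stand out in day 9 cells given RA alone, VEGFA, ADM and HK2 in day 6 cells given RA, and EGLN3 is lowest in day 9 cells given RA and then CHIR99021 with BMP4.

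At day 6, at the end of the RA pulse, RA-treated cells had more HK2, ADM, LDHB and VEGFA RNA and less SLC2A3 and SLC16A3 RNA than untreated cells. Of the 36 members, 6 rose (16.7%), against 25.3% of all genes tested, and 9 fell (25.0%), against 23.4%. The median log2 fold change of the members was -0.00, against 0.003 over all genes. The shares of members called were thus near or below those of all genes, and large changes were limited to a few members.

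HK2 had 233, 246 and 259 CPM in RA-treated day 6 cells, against 47.5, 52.2 and 46.6 CPM in untreated day 6 cells. The groups did not overlap, and HK2 rose by 2.34 ± 0.11 on the log2 scale (SE; edgeR quasi-likelihood test, adjusted p = 4.1e-14). It was the hexokinase that changed most, since HK1, the constitutive form, averaged 41.3 ± 3.47 CPM with RA and 53.4 ± 0.593 CPM without (log2 -0.38, adjusted p = 0.0012). Per length, HK2 averaged 233 transcripts per 1000000 (TPM) and HK1 10.4 TPM in RA-treated day 6 cells. In untreated day 6 cells, HK2 averaged 40.1 TPM and HK1 11.7 TPM. By CPM, HK2 averaged 48.7 ± 3.03 and HK1 53.4 ± 0.593 in those untreated cells. The gene lengths behind the TPM were not checked, so the TPM do not settle how the levels of HK2 and HK1 compare.

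SLC2A3, the high-affinity glucose transporter GLUT3, had 740.5, 642 and 742 CPM in RA-treated day 6 cells, against 4332, 4296 and 3947 CPM in untreated day 6 cells. It fell by 2.57 ± 0.12 on the log2 scale (adjusted p = 6.3e-14), the largest fall among the members. SLC2A14, a near-identical copy, moved alike, with 7.9 ± 1.29 CPM in RA-treated and 111 ± 20.3 CPM in untreated day 6 cells, so reads may be split between the copies and the size of the change is uncertain. SLC16A3, the lactate exporter MCT4, averaged 11.6 ± 1.89 CPM with RA and 26.2 ± 0.812 CPM without (log2 -1.20, adjusted p = 1.3e-07). The ubiquitous transporter SLC2A1 (GLUT1) was not called, with 138, 133 and 117 CPM in RA-treated and 156, 139 and 176 CPM in untreated day 6 cells.

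Among enzymes of the lower pathway, LDHA had 117, 124 and 135 CPM in RA-treated day 6 cells, against 168, 202 and 189 CPM in untreated day 6 cells (log2 -0.57 ± 0.14, adjusted p = 0.0025). LDHB, the subunit that favours pyruvate formation, went the other way, with 73.8, 74.4 and 66.1 CPM in RA-treated and 26.4, 28.3 and 34.7 CPM in untreated day 6 cells (log2 1.26 ± 0.13, adjusted p = 2.7e-08). PDK1, the kinase that turns off pyruvate dehydrogenase, had 36.9, 41.9 and 36.5 CPM with RA and 18.9, 25.3 and 25.3 CPM without (log2 0.73 ± 0.13, adjusted p = 8.3e-05). PFKP, the platelet-type phosphofructokinase, averaged 32.4 ± 5.77 CPM with RA and 49.4 ± 7.57 CPM without (log2 -0.62, adjusted p = 0.00087). GAPDH had 1264, 1324 and 1301 CPM in RA-treated and 1533, 1396 and 1486 CPM in untreated day 6 cells, a log2 change of -0.18 (adjusted p = 0.043) that was 0.02 on the TPM scale and was not called when any 1 of 5 of these 6 libraries was left out.

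VEGFA, the vascular growth factor, had 1985, 1814 and 1673 CPM in RA-treated day 6 cells, against 1046, 1122 and 769 CPM in untreated day 6 cells (log2 0.90 ± 0.13, adjusted p = 1.3e-05). ADM averaged 152 ± 28.1 CPM with RA and 41.0 ± 16.1 CPM without (log2 1.91 ± 0.23, adjusted p = 6.5e-06). These were the only hypoxia targets of the 9 tested that changed at day 6. HIF1A itself had 282, 290 and 274 CPM in RA-treated and 316, 337 and 325 CPM in untreated day 6 cells (log2 -0.21, adjusted p = 0.021), and that call was lost without RA replicate 1 or 3 or untreated replicate 2. Antisense RNAs overlap HIF1A, and reads from either cannot be told apart without the strand setting. EPAS1, encoding HIF-2 alpha, had 4.52, 2.86 and 5.24 CPM with RA and 6.03, 5.73 and 5.15 CPM without, and was not called. RA-treated day 6 libraries also held 468 to 569 CPM of 6 hepatic markers, against 21.8 to 37.4 CPM in untreated day 6 libraries, with none of the 6 at 0, and their part in the HK2, ADM and VEGFA changes was not tested. In a bulk sample, fewer cells of a type and less RNA per cell cannot be told apart.

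With the read kind as a covariate, which nearly coincides with treatment, 3 of these 15 calls remained, those of HK2, SLC2A3 and VEGFA. Calls were lost over all genes too, with 453 called higher and 557 lower of 15531 in that fit, against 3929 and 3642 without the covariate. Set against untreated day 6 replicate 2 alone, 0 of the 15 changed direction, and PFKP and GAPDH lost their calls. On the TPM scale 10 members rose and 5 fell. Over all 15531 genes that scale, with pseudocount 1, called 6219 higher and 2111 lower.

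At day 9, in cells that had received the RA pulse alone, PFKP and PFKFB3 rose several-fold, PFKFB4 and LDHA fell, and ADM was again higher. Of the 36 members, 9 rose and 9 fell (25.0% each), against 32.5% called higher and 32.5% called lower over all genes. The members' median log2 fold change was 0.09, against -0.022 for all genes.

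PFKP had 233, 256 and 241 CPM in day 9 cells given RA alone, against 32.5, 39.3 and 33.7 CPM in untreated day 9 cells (log2 2.81 ± 0.13, adjusted p = 4.2e-13). PFKFB3 had 329.8, 406 and 390.4 CPM in the RA cells, against 72.2, 64.7 and 70.7 CPM in the untreated cells (log2 2.44 ± 0.11, adjusted p = 1e-14). PFKFB4, its relative with a more balanced kinase and phosphatase activity, had 19.3, 30.8 and 18.9 CPM with RA and 56.0, 69.6 and 60.0 CPM without (log2 -1.40 ± 0.15, adjusted p = 8.7e-08). PFKFB3 overlaps PFKFB3-AS1 and PFKFB4 overlaps UCN2 in the RefSeq annotation, and reads from either cannot be told apart without the strand setting. The RA and untreated groups did not overlap for any of these, and the other phosphofructokinase genes, PFKL and PFKM, were not called. Per length, PFKP averaged 103 TPM in day 9 cells given RA alone, against 11.8 TPM in untreated day 9 cells. PFKM and PFKL averaged 39.8 and 48.2 TPM in the RA cells, against 32.2 and 39.5 TPM in the untreated cells, so by these means PFKP was the highest of the 3 isozymes in the RA cells and the lowest in the untreated cells.

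LDHA had 325, 372 and 229.6 CPM in day 9 cells given RA alone, against 612, 752 and 667 CPM in untreated day 9 cells (log2 -1.13 ± 0.14, adjusted p = 1.1e-06). LDHB had 58.4, 51.8 and 48.8 CPM with RA and 19.6, 29.8 and 25.4 CPM without (log2 1.14 ± 0.13, adjusted p = 9.6e-08). As at day 6, LDHA was lower and LDHB higher in every RA-treated library than in every untreated library of the same day. GAPDH had 1657, 1719 and 1671 CPM with RA and 1941, 2122 and 2004 CPM without, a log2 change of -0.27 (adjusted p = 0.0029) that was 0.07 on the TPM scale. PDK1 was not called, with 92.6, 97.0 and 71.0 CPM in the RA cells and 70.7, 88.9 and 79.8 CPM in the untreated cells.

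Of the transporters, SLC2A3 rose (6009.6 ± 724 CPM with RA, 3606 ± 585 CPM without, log2 0.74, adjusted p = 5.1e-06), while SLC2A14 averaged 73.1 ± 5.23 CPM with RA and 109 ± 15.0 CPM without. SLC2A1 had 121, 182 and 128 CPM with RA and 218, 215 and 173 CPM without. These SLC2A1 groups overlapped, and its call (log2 -0.49, adjusted p = 0.0096) was lost without RA replicate 3.

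ADM averaged 42.8 ± 4.9 CPM in day 9 cells given RA alone and 10.5 ± 3.14 CPM in untreated day 9 cells (log2 2.09 ± 0.27, adjusted p = 9.6e-06). DDIT4, an inhibitor of mTORC1 signalling induced by stress, averaged 39.7 ± 7.35 CPM with RA and 78.0 ± 26.2 CPM without (log2 -1.01, adjusted p = 0.0019). VEGFA was not called at day 9, with 162, 171 and 194 CPM in the RA cells and 215, 179 and 164 CPM in the untreated cells. Both HIF alpha subunits were called higher. HIF1A had 267, 338 and 300 CPM with RA and 245, 256 and 255 CPM without (log2 0.26, adjusted p = 0.0032). EPAS1 had 9.79, 13.8 and 16.9 CPM with RA and 7.8, 8.0 and 9.16 CPM without (log2 0.74, adjusted p = 0.016), a call lost without RA replicate 3 or untreated replicate 1. EGLN3, a hydroxylase that is itself a HIF target, was not called, with 8.82, 11.2 and 9.78 CPM with RA and 7.51, 9.02 and 11.2 CPM without.

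Markers of other cells moved with this comparison. Summed CPM of 6 cardiac markers was 1141 to 1639 in day 9 cells given RA alone, with none at 0, against 60.6 to 70.0 in untreated day 9 cells, where MYBPC3 was at 0. Summed CPM of 6 mesenchyme markers was 1804 to 2833 with RA and 208 to 623 without, with none at 0. Summed CPM of 6 hepatic markers was 185 to 287 with RA and 7.15 to 20.4 without, with none at 0. Of those tested, 4 of 6 cardiac, 6 of 6 mesenchyme and 5 of 5 hepatic markers rose, against 32.5% of all genes. The cardiac factor NKX2-5 fell, with 12.5 ± 7.38 CPM with RA and 36.4 ± 2.92 CPM without. MYH6 (723 ± 171 CPM) and MYL7 (553 ± 74.0 CPM) carried most of the cardiac sum in the RA cells. Their part in the PFKP, PFKFB3 and ADM changes was not tested. With the read kind as a covariate, 2 of the 18 calls remained, those of PFKP and PFKFB3. Over all genes that fit called 628 higher and 576 lower, against 5054 and 5051 without the covariate. The adjustment rested mainly on untreated day 6 libraries, outside this comparison, so calls kept or lost do not settle the part of read kind. On the TPM scale 21 members rose and 4 fell. Over all 15531 genes that scale, with pseudocount 1, called 7642 higher and 2788 lower.

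**Figure D2:**
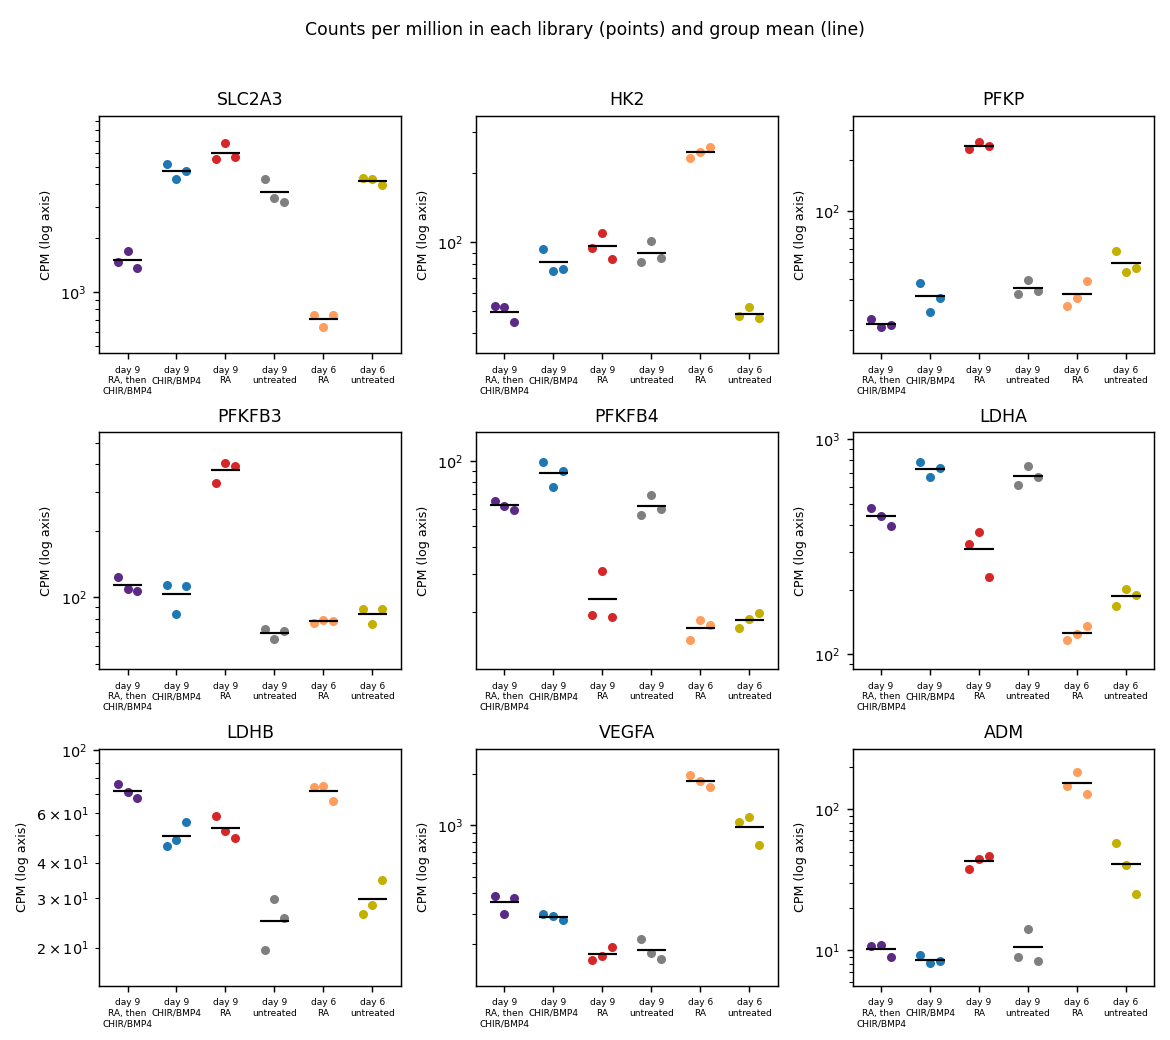
CPM (log axis) of 9 members in each of 18 libraries (points) with the group mean (line), by group. PFKP lies between 233 and 256 CPM in day 9 cells given RA alone and at or below 58.0 CPM in every other library, and HK2 lies between 233 and 259 CPM in day 6 cells given RA and at or below 109.8 CPM in every other library.

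CHIR99021 with BMP4 was followed by a mostly moderate rise of many listed glycolytic enzymes in cells that had not had RA. Of the 36 members 16 rose (44.4%), against 21.0% of all genes, and 3 fell (8.33%), against 21.8%. The members' median log2 fold change was 0.22, against 0.003 for all genes. By role, 6 of 11 genes of upper glycolysis and 6 of 8 of the lower pathway rose, and 3 of the 9 tested hypoxia targets did. Without treated replicate 1, ENO1, PGK1, PKM and KDM3A lost their calls, and each was also lost without at least 1 other library. Of 14 other genes of glycolysis and gluconeogenesis tested, 2 rose and 6 fell (median log2 -0.24), against 21.0% and 21.8% of all genes. Among them PGAM1 averaged 39.8 ± 5.01 CPM with the treatment and 98.0 ± 4.57 CPM without (log2 -1.29).

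GAPDH had 3029.6, 2596 and 3032 CPM in day 9 cells given CHIR99021 with BMP4, against 1941, 2122 and 2004 CPM in untreated day 9 cells (log2 0.51 ± 0.07, adjusted p = 4.6e-06). GPI, which converts glucose 6-phosphate to fructose 6-phosphate, averaged 198 ± 27.5 CPM with CHIR99021 and BMP4 and 112 ± 4.42 CPM in untreated cells (log2 0.83, adjusted p = 1.6e-07). The neuronal-type enolase ENO2 averaged 177 ± 11.1 CPM with and 99.9 ± 12.0 CPM without the treatment (log2 0.83, adjusted p = 2.6e-08). P4HA1, a collagen prolyl hydroxylase subunit, averaged 283 ± 18.6 CPM with and 138 ± 36.6 CPM without (log2 1.05 ± 0.17, adjusted p = 0.00013).

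PFKFB3 had 114, 84.0 and 112 CPM with CHIR99021 and BMP4 and 72.2, 64.7 and 70.7 CPM in untreated cells (log2 0.58, adjusted p = 8.4e-05), and PFKFB4 had 98.4, 75.5 and 89.9 CPM with the treatment and 56.0, 69.6 and 60.0 CPM without (log2 0.52, adjusted p = 0.003). VEGFA rose as well, with 303, 292 and 278 CPM with the treatment and 215, 179 and 164 CPM without (log2 0.64, adjusted p = 0.00067). ALDOA, the main muscle and embryonic aldolase, had the largest rise (log2 1.30, adjusted p = 1.2e-05) but only 10.6 ± 0.468 CPM with and 4.14 ± 0.752 CPM without the treatment. The row LOC112694756, which overlaps ALDOA, held 1.63 to 2.69 CPM by group mean, so ALDOA's level is uncertain. LDHB rose by 1.06 ± 0.13 on the log2 scale, to 45.8, 47.9 and 55.9 CPM, against 19.6, 29.8 and 25.4 CPM in untreated cells (adjusted p = 5.3e-07).

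The 3 members that fell were HIF1A, HK1 and SLC16A1, the lactate and pyruvate carrier MCT1. HIF1A had 165, 169.6 and 175 CPM with CHIR99021 and BMP4, against 245, 256 and 255 CPM in untreated day 9 cells (log2 -0.57 ± 0.07, adjusted p = 1.2e-06). SLC16A1 averaged 189 ± 5.92 CPM with and 267 ± 19.3 CPM without (log2 -0.50), and HK1 averaged 62.7 ± 5.07 CPM with and 89.6 ± 9.55 CPM without (log2 -0.50). LDHA, HK2, PDK1, EPAS1, EGLN3 and SLC2A1 were not called. LDHA had 784, 672 and 738 CPM with the treatment and 612, 752 and 667 CPM without, and the groups overlapped. Summed CPM of 6 hepatic markers was 59.7 to 93.6 with the treatment and 7.15 to 20.4 without, with none at 0, and 4 of the 5 tested rose. Cardiac markers summed to 44.7 to 58.5 CPM with and 60.6 to 70.0 CPM without, with MYBPC3 at 0 in both groups. Of the cardiac markers 1 of 6 rose and 2 fell. The part of the hepatic and cardiac markers was not tested. With the read kind as a covariate 0 of the 19 calls remained (at an unadjusted p of 0.05, by edgeR, 3 members were higher and 0 lower) and SLC16A1 changed sign (log2 0.56). That fit called 58 genes higher and 84 lower of all 15531, against 3268 and 3386 without the covariate, so the loss is not particular to the members. Here too the adjustment rested mainly on untreated day 6 libraries, outside this comparison. Without untreated day 9 replicate 1 the number that fell was 5.

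After RA, the same agents split the members more evenly, and this comparison lies within the same read kind. PFKP, PFKFB3, SLC2A3, ADM and EGLN3 fell steeply and PFKFB4, VEGFA and ALDOC rose. Of the 36 members 14 rose (38.9%), against 32.1% of all genes, and 12 fell (33.3%), against 32.3%. The median log2 fold change was 0.05 for the members and 0.017 for all genes.

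PFKP had 23.2, 20.7 and 21.4 CPM in cells given RA and then CHIR99021 with BMP4, against 233, 256 and 241 CPM in day 9 cells given RA alone (log2 -3.48 ± 0.14, adjusted p = 2e-14). PFKFB3 had 123, 109.6 and 107 CPM after both treatments, against 329.8, 406 and 390.4 CPM with RA alone (log2 -1.73 ± 0.10, adjusted p = 1.1e-12). PFKFB4 had 65.5, 61.6 and 59.4 CPM after both treatments, against 19.3, 30.8 and 18.9 CPM with RA alone (log2 1.42 ± 0.15, adjusted p = 5.3e-08). PFKFB3 and PFKFB4 thus moved in opposite directions both with RA at day 9 and with CHIR99021 and BMP4 after it, comparisons that share the RA-alone libraries.

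HK2 had 52.6, 51.9 and 44.8 CPM after both treatments and 94.3, 109.8 and 84.6 CPM with RA alone (log2 -0.94 ± 0.10, adjusted p = 4.4e-08). HK1 also fell, to 36.5 ± 1.02 CPM after both treatments, against 90.3 ± 4.59 CPM with RA alone (log2 -1.30, adjusted p = 6e-12). LDHA had 482, 440 and 397 CPM after both treatments and 325, 372 and 229.6 CPM with RA alone (log2 0.51, adjusted p = 0.003). LDHB had 75.6, 71.2 and 67.8 CPM after both and 58.4, 51.8 and 48.8 CPM with RA alone (log2 0.44, adjusted p = 0.0022). Both lactate dehydrogenase genes therefore rose here, in groups that did not overlap. GAPDH had 2426, 2270.4 and 2147 CPM after both and 1657, 1719 and 1671 CPM with RA alone (log2 0.44, adjusted p = 1.4e-05).

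EGLN3 had 2.1, 2.71 and 2.48 CPM after both treatments, against 8.82, 11.2 and 9.78 CPM with RA alone (log2 -2.07 ± 0.27, adjusted p = 6.3e-07). ADM averaged 10.2 ± 1.11 CPM after both and 42.8 ± 4.9 CPM with RA alone (log2 -2.05, adjusted p = 7.6e-06), and SLC2A3 averaged 1516 ± 176 CPM after both and 6009.6 ± 724 CPM with RA alone (log2 -1.99, adjusted p = 1.2e-12). VEGFA had 387, 300.3 and 373 CPM after both and 162, 171 and 194 CPM with RA alone (log2 1.01 ± 0.13, adjusted p = 2.4e-06). ALDOC, the brain-type aldolase, averaged 18.4 ± 2.37 CPM after both and 9.69 ± 0.642 CPM with RA alone (log2 0.95, adjusted p = 0.00033). HIF1A fell here as it did without RA, with 206, 208 and 187 CPM after both and 267, 338 and 300 CPM with RA alone (log2 -0.59, adjusted p = 2.4e-07). Cardiac markers summed to 8.84 to 10.3 CPM after both treatments, with MYBPC3 at 0, against 1141 to 1639 CPM with RA alone, and mesenchyme markers to 236 to 259 CPM, against 1804 to 2833 CPM. Of the mesenchyme markers 3 of 6 rose and 3 fell, and of the cardiac markers 6 of 6 fell. Over all genes 32.1% were called higher and 32.3% lower. The part of these markers in the members' changes was not tested.

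Among cells that all received CHIR99021 with BMP4, those with an earlier RA pulse had lower levels of most called members. Of the 36 members 18 fell (50.0%), against 22.1% of all genes, and 3 rose (8.33%), against 21.2%. The members' median log2 fold change was -0.27, against -0.006 for all genes. Of the genes of upper glycolysis 6 of 11 fell, and of the lower pathway 6 of 8. This comparison too lies within the same read kind.

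EGLN3 had 2.1, 2.71 and 2.48 CPM with the earlier RA pulse and 10.6, 5.76 and 11.2 CPM with CHIR99021 and BMP4 alone (log2 -1.99 ± 0.26, adjusted p = 1.8e-06). SLC2A3 averaged 1516 ± 176 CPM with and 4734 ± 447 CPM without the RA pulse (log2 -1.64, adjusted p = 1e-10), and SLC16A3 averaged 27.6 ± 3.71 CPM with and 64.7 ± 3.51 CPM without (log2 -1.21, adjusted p = 4.6e-09). SLC2A14 again moved like SLC2A3, with 15.4 ± 0.511 CPM with and 51.5 ± 9.61 CPM without the pulse. LDHA had 482, 440 and 397 CPM with and 784, 672 and 738 CPM without the pulse (log2 -0.73 ± 0.13, adjusted p = 0.00024). HK2 had 52.6, 51.9 and 44.8 CPM with and 93.2, 74.9 and 76.6 CPM without (log2 -0.71, adjusted p = 6.7e-06).

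GAPDH fell by less, with 2426, 2270.4 and 2147 CPM with the pulse and 3029.6, 2596 and 3032 CPM without (log2 -0.34, adjusted p = 0.00058). PFKFB4 had 65.5, 61.6 and 59.4 CPM with and 98.4, 75.5 and 89.9 CPM without the pulse (log2 -0.50, adjusted p = 0.0037), and PFKFB3 was not called. The risers were SLC16A1, LDHB and HIF1A. SLC16A1 averaged 387 ± 12.4 CPM with and 189 ± 5.92 CPM without the pulse (log2 1.03 ± 0.09, adjusted p = 2e-09). LDHB had 75.6, 71.2 and 67.8 CPM with and 45.8, 47.9 and 55.9 CPM without (log2 0.52, adjusted p = 0.00077), so LDHA was lower and LDHB higher after RA within the same read kind as well. HIF1A had 206, 208 and 187 CPM with and 165, 169.6 and 175 CPM without (log2 0.24, adjusted p = 0.01), a call lost without replicate 2 of the cells given RA and then CHIR99021 with BMP4. Cardiac markers summed to 8.84 to 10.3 CPM with the pulse and 44.7 to 58.5 CPM without, and mesenchyme markers to 236 to 259 CPM with and 281 to 321 CPM without. MYBPC3 was at 0 in both groups. Of the cardiac markers 0 of 6 rose and 2 fell, and of the mesenchyme markers 3 of 6 rose and 2 fell. Over all genes 21.2% were called higher and 22.1% lower. The part of these markers was not tested. In a fit of these groups alone, or on the TPM scale, 5 members rose. On the TPM scale the falls of ALDOC, P4HA1, PGK1, PKM and TPI1 were not called. Those of ALDOC and P4HA1 also lost their calls whichever library of these groups was left out. Over all genes, the fit of these groups called 3698 higher and 3777 lower of 14837. The TPM scale, with pseudocount 1, called 3960 higher and 2408 lower of 15531.

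**Figure D3:**
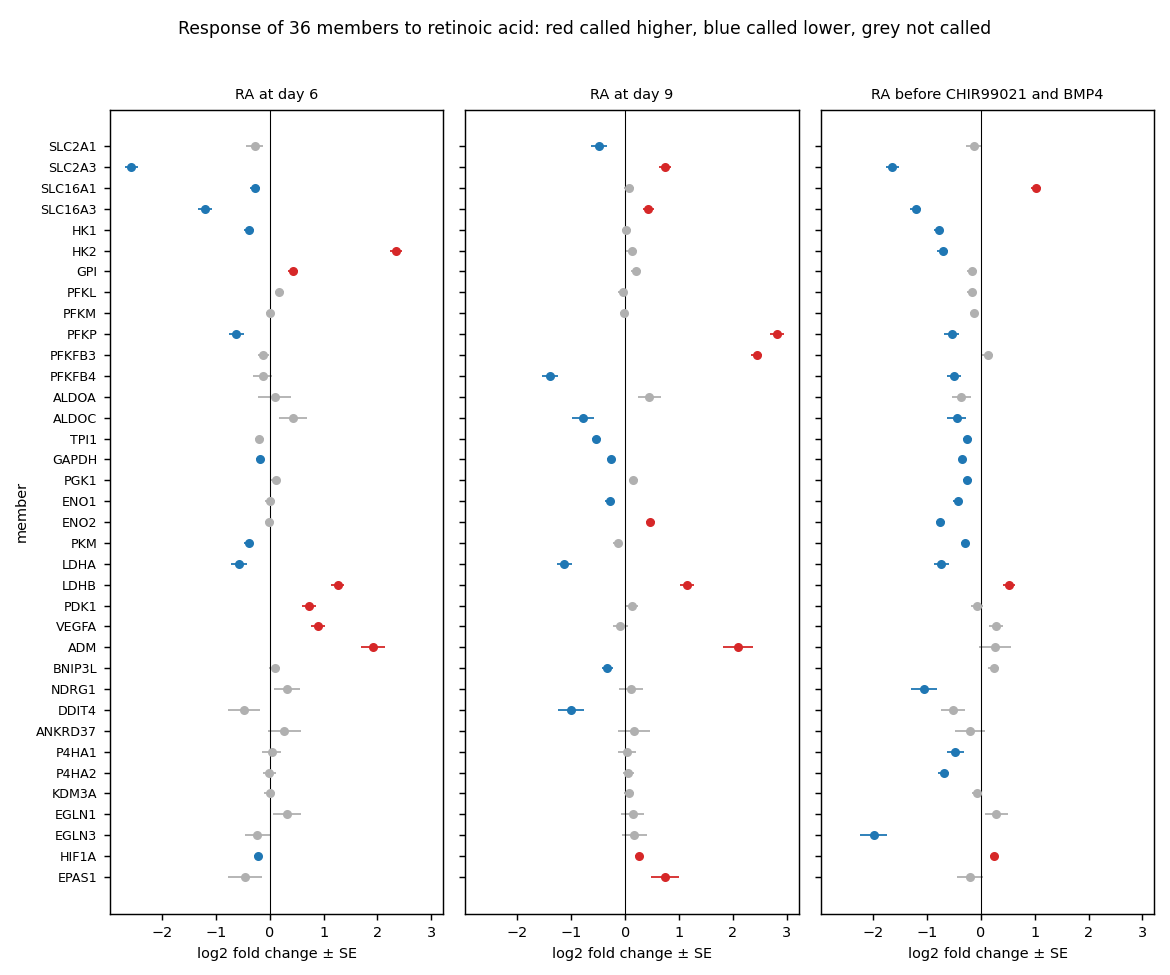
Log2 fold change ± SE of the 36 tested members (rows) with RA in 3 settings: day 6, day 9, and day 9 with CHIR99021 and BMP4 in both groups (panels, from left); red is called higher, blue called lower, grey not called. HK2 leads at day 6 with 2.34 and PFKP at day 9 with 2.81, while with CHIR99021 and BMP4 EGLN3 and SLC2A3 lead the falls with -1.99 and -1.64.

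The largest shared movement of the members was over time. In untreated cells 21 of 36 members (58.3%) were higher at day 9 than at day 6, against 24.0% of all genes, and 7 (19.4%) were lower, against 22.9%. After RA, within the same read kind, 22 of 36 (61.1%) were higher, against 28.5% of all genes, and 5 (13.9%) were lower, against 30.3%. The median log2 fold change of the members was 0.54 without treatment and 0.46 after RA, against 0.004 and -0.032 over all genes. Of the upper glycolysis genes 8 of 11 rose in untreated cells and 7 of 11 after RA, and of the lower pathway 6 of 8 rose in each.

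**Figure D4:**
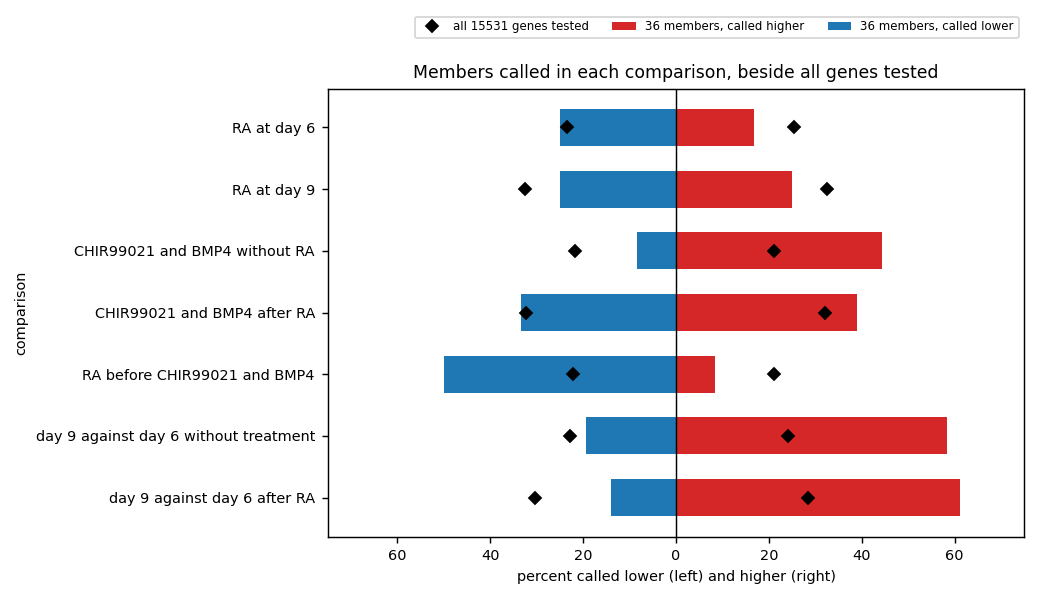
Percent of the 36 tested members called higher (red, right) and lower (blue, left) in 7 comparisons, with the percent of all 15531 genes called in the same direction (diamonds). Both comparisons of day 9 with day 6 have 58.3% and 61.1% of members called higher, against 24.0% and 28.5% of all genes, and RA before CHIR99021 with BMP4 has 50.0% called lower, against 22.1%.

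LDHA showed 612, 752 and 667 CPM in untreated day 9 cells, against 168, 202 and 189 CPM in untreated day 6 cells (log2 1.86 ± 0.14, adjusted p = 8.8e-09). After RA it had 325, 372 and 229.6 CPM at day 9, against 117, 124 and 135 CPM at day 6 (log2 1.30, adjusted p = 3.1e-07). PDK1 had 70.7, 88.9 and 79.8 CPM in untreated day 9 cells and 18.9, 25.3 and 25.3 CPM in untreated day 6 cells (log2 1.77 ± 0.13, adjusted p = 3e-10). After RA, PDK1 had 92.6, 97.0 and 71.0 CPM at day 9 and 36.9, 41.9 and 36.5 CPM at day 6 (log2 1.17, adjusted p = 1.9e-08). GAPDH rose by 0.46 in untreated cells (adjusted p = 2e-05) and by 0.38 after RA (adjusted p = 0.00012) on the log2 scale, and in neither did the day 9 and day 6 libraries overlap.

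DDIT4 averaged 78.0 ± 26.2 CPM in untreated day 9 cells and 21.6 ± 6.91 CPM in untreated day 6 cells (log2 1.90, adjusted p = 3.7e-05). PFKFB4 had 56.0, 69.6 and 60.0 CPM in untreated day 9 cells and 16.9, 18.6 and 19.7 CPM in untreated day 6 cells (log2 1.73, adjusted p = 2.3e-08). After RA it had 19.3, 30.8 and 18.9 CPM at day 9 and 14.9, 18.3 and 17.4 CPM at day 6 (log2 0.46, adjusted p = 0.022), and the call was lost without day 9 RA replicate 2 or day 6 RA replicate 1. PFKFB3 went the other way in untreated cells, with 72.2, 64.7 and 70.7 CPM at day 9 and 89.0, 75.6 and 88.3 CPM at day 6 (log2 -0.28, adjusted p = 0.032), a call lost without day 9 replicate 2 or 3 or day 6 replicate 1 or 3. After RA, PFKFB3 had 329.8, 406 and 390.4 CPM at day 9 and 76.5, 79.0 and 78.4 CPM at day 6 (log2 2.27 ± 0.10, adjusted p = 2.4e-14).

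The largest rises after RA were those of SLC2A3, PFKP and SLC16A3. SLC2A3 averaged 6009.6 ± 724 CPM in day 9 cells given RA alone and 708 ± 57.2 CPM in RA-treated day 6 cells (log2 3.09, adjusted p = 2.2e-15). PFKP averaged 244 ± 11.7 CPM at day 9 and 32.4 ± 5.77 CPM at day 6 (log2 2.92, adjusted p = 2.2e-13). SLC16A3 averaged 73.0 ± 11.5 CPM at day 9 and 11.6 ± 1.89 CPM at day 6 (log2 2.68, adjusted p = 1.9e-14). Cardiac markers summed to 1141 to 1639 CPM in day 9 cells given RA alone and 33.2 to 36.1 CPM in RA-treated day 6 cells, and 6 of 6 rose. Mesenchyme markers summed to 1804 to 2833 CPM at day 9 and 345 to 473 CPM at day 6, and 4 of 6 rose and 2 fell. None of these markers was at 0 in either group, and their part in these changes was not tested. In untreated cells SLC2A3 was not called between the days, at 3606 ± 585 CPM on day 9 and 4192 ± 212 CPM on day 6.

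Some members ran against this rise. VEGFA had 215, 179 and 164 CPM in untreated day 9 cells, against 1046, 1122 and 769 CPM in untreated day 6 cells (log2 -2.39 ± 0.14, adjusted p = 1.4e-10). After RA, VEGFA had 162, 171 and 194 CPM at day 9, against 1985, 1814 and 1673 CPM at day 6 (log2 -3.38 ± 0.14, adjusted p = 4.3e-13). ADM fell with it in both (log2 -2.01 in untreated cells and -1.82 after RA), as did SLC16A1 (log2 -1.46 and -1.13). VEGFA and ADM moved opposite to LDHA, PDK1 and DDIT4 between the days, and the part of HIF in these changes was not tested. HK2 had 81.9, 101 and 85.2 CPM in untreated day 9 cells and 47.5, 52.2 and 46.6 CPM in untreated day 6 cells, a rise of 0.87 on the log2 scale (adjusted p = 7.5e-07). After RA, HK2 fell by 1.35 on the log2 scale, to 94.3, 109.8 and 84.6 CPM at day 9, against 233, 246 and 259 CPM at day 6 (adjusted p = 7.9e-11).

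Of the factors themselves, HIF1A was lower in untreated day 9 cells than in untreated day 6 cells (log2 -0.37, adjusted p = 0.00022) and was not called after RA. EPAS1 was not called in untreated cells and rose after RA (13.5 ± 3.56 CPM at day 9, 4.21 ± 1.22 CPM at day 6, log2 1.75, adjusted p = 2.1e-05). EGLN1, the main HIF hydroxylase, averaged 6.59 ± 1.07 CPM in untreated day 9 cells and 3.12 ± 1.13 CPM in untreated day 6 cells (log2 1.06, adjusted p = 0.0011). Pluripotency markers POU5F1, NANOG and DPPA4 summed to 8.99 to 13.9 CPM in untreated day 9 libraries and 46.3 to 56.7 CPM in untreated day 6 libraries, and their part in these changes was not tested. DPPA4 carried most of these sums, at 10.4 ± 2.29 CPM in untreated day 9 and 46.9 ± 4.23 CPM in untreated day 6 cells. POU5F1 and NANOG averaged only 3.48 and 1.06 CPM in untreated day 6 cells. With the read kind as a covariate, 22 of the 28 calls in untreated cells remained (over all genes, 2534 higher and 2449 lower in that fit, against 3735 and 3552 without the covariate), and with untreated day 6 replicate 2 alone for day 6, 22 remained. In both of these fits 4 members were called lower.

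Whether RA changed the members differently in the presence of CHIR99021 and BMP4, or differently at day 9 than at day 6, was tested by interaction terms. In the first, 4 members were called above 0 (11.1%), against 25.5% of all genes, and 16 below 0 (44.4%), against 27.9%. PFKP had the largest value, with a response to RA that was lower by 3.35 ± 0.19 log2 units when CHIR99021 and BMP4 followed (adjusted p = 2.5e-11). SLC2A3 (-2.38), PFKFB3 (-2.31) and EGLN3 (-2.16) came next. With the read kind as a covariate, 3 of the 20 calls remained, those of PFKP, PFKFB3 and SLC2A3, and over all genes 531 lay above and 685 below 0, against 3966 and 4334 without the covariate. Between the days, 9 members were called above 0 (25.0%), against 24.9% of all genes, and 8 below 0 (22.2%), against 26.0%. PFKP (3.43), SLC2A3 (3.30) and PFKFB3 (2.55) had a more positive response to RA at day 9, and HK2 a more negative one (-2.22). Of those 17 calls 12 remained with the read kind as a covariate, with 3223 of all genes above and 3492 below 0 in that fit, against 3862 and 4044 without it.

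**Figure D5:**
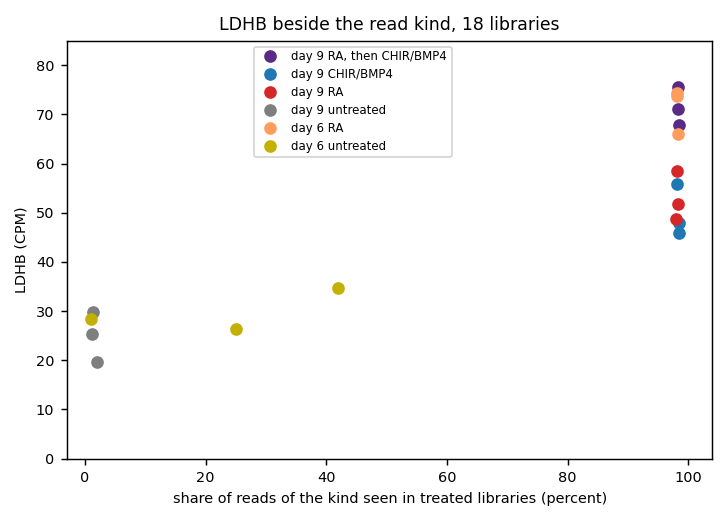
LDHB in CPM against the read-kind index, in percent, for 18 libraries coloured by group. The axis names the index a share of reads of the kind seen in treated libraries, which was not measured directly. The treated libraries, at 98.0% to 98.5%, lie between 45.8 and 75.6 CPM, and the untreated ones lie between 19.6 and 34.7 CPM.

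LDHB also has copies whose counts moved with read kind. Rows for 2 LDHB pseudogenes carried 7.78% to 10.4% of the summed LDHB and pseudogene counts in the treated groups, against 1.07% in untreated day 9 cells and 2.8% in untreated day 6 cells. Every treated library had more LDHB than every untreated library. With the covariate, its log2 change with RA was 0.77 at day 6 and 0.51 at day 9, and neither was called. The call with RA before CHIR99021 and BMP4, lies within the same read kind.

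CA9 had at most 0.552 CPM in any library, with 0.0956, 0.201 and 0 CPM after RA and then CHIR99021 with BMP4, 0.217, 0.333 and 0.155 CPM with CHIR99021 and BMP4 alone, 0.321, 0.104 and 0.111 CPM with RA alone at day 9, and 0.0804, 0.17 and 0.346 CPM in untreated day 9 cells. At day 6, CA9 had 0.552, 0.327 and 0.283 CPM with RA and 0.134, 0.159 and 0.215 CPM without. ANKRD37, a small ankyrin-repeat HIF target, was called in none of the 7 comparisons and averaged 1.81 to 2.64 CPM by group. PFKL was called only in the comparison of untreated day 9 with untreated day 6 cells (log2 0.24, adjusted p = 0.024). SLC2A1 was called only with RA at day 9. It had 161, 149 and 156 CPM after RA and then CHIR99021 with BMP4, and 199.7, 142 and 165 CPM with CHIR99021 and BMP4 alone. With and without the RA pulse before CHIR99021 and BMP4, EPAS1 and PDK1 were not called. EPAS1 had 8.37, 12.8 and 8.82 CPM after RA and then CHIR99021 with BMP4 and 6.95, 14.1 and 13.2 CPM with CHIR99021 and BMP4 alone. EGLN3 was not called between the days or with RA at day 6, where it had 8.72, 9.56 and 10.3 CPM with RA and 14.9, 11.1 and 7.83 CPM without. PDK1 had 92.9, 84.5 and 78.4 CPM after both treatments and 94.1, 88.8 and 87.4 CPM with CHIR99021 and BMP4 alone. By length-scaled level GAPDH was among the most abundant members, averaging 1041 TPM in RA-treated and 1029 TPM in untreated day 6 cells.

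Genes of the same pathways outside the module were read beside it. Of 30 other hypoxia targets tested, 20 were higher and 1 lower in untreated day 9 than untreated day 6 cells (median log2 0.53), against 24.0% higher and 22.9% lower over all genes. After RA 19 were higher and 7 lower (median 0.54), against 28.5% and 30.3% of all genes. With RA before CHIR99021 and BMP4, 4 of the 30 rose and 17 fell (median -0.43), against 21.2% and 22.1% of all genes. With RA alone 9 rose and 8 fell at each day, near the shares of all genes, 25.3% and 23.4% at day 6 and 32.5% and 32.5% at day 9. HMOX1, a heme-degrading enzyme, averaged 30.8 ± 4.85 CPM in RA-treated and 3.14 ± 0.491 CPM in untreated day 6 cells (log2 3.32, adjusted p = 7.1e-12), and the secreted glycoprotein STC2 averaged 201 ± 14.7 CPM with RA and 27.4 ± 9.77 CPM without (log2 2.89, adjusted p = 4.5e-06). The clock-linked repressor BHLHE40 averaged 34.9 ± 0.837 CPM in day 9 cells given RA alone and 3.19 ± 0.922 CPM in untreated day 9 cells (log2 3.52, adjusted p = 7.3e-12). PPFIA4 averaged 55.5 ± 13.8 CPM in untreated day 9 and 8.13 ± 0.437 CPM in untreated day 6 cells (log2 2.73, adjusted p = 1.2e-06), and MXI1, a MAX-binding repressor, averaged 73.2 ± 12.6 CPM at day 9 and 24.8 ± 4.12 CPM at day 6 (log2 1.55, adjusted p = 4.1e-10).

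Of 9 HIF partners and regulators, 5 fell with RA at day 6 and the others were not called, against 23.4% of all genes called lower and 25.3% higher. CITED2, which competes with HIF for its coactivators, averaged 57.4 ± 3.2 CPM in RA-treated and 246 ± 3.71 CPM in untreated day 6 cells (log2 -2.10, adjusted p = 4.2e-14). Of 14 other genes of glycolysis and gluconeogenesis tested, 9 fell and 1 rose with CHIR99021 and BMP4 after RA, against 32.3% and 32.1% of all genes. The muscle enolase ENO3 led the falls, at 30.8 ± 1.12 CPM after both treatments and 92.3 ± 16.0 CPM with RA alone (log2 -1.57, adjusted p = 4e-08). From day 6 to day 9 in untreated cells, 2 of these 14 rose and 5 fell (median -0.21), against 24.0% and 22.9% of all genes. After RA, 5 rose and 3 fell between the days (median 0.12), against 28.5% and 30.3% of all genes. With RA before CHIR99021 and BMP4, 4 rose and 5 fell (median -0.05), against 21.2% and 22.1% of all genes. Of 13 genes of the pyruvate dehydrogenase step, 7 rose and 4 fell with RA at day 9, against 32.5% of all genes in each direction. With CHIR99021 and BMP4 after RA 2 of the 13 rose and 7 fell, against 32.1% and 32.3% of all genes. DLAT, the acetyltransferase subunit of the complex, averaged 95.7 ± 4.35 CPM in day 9 cells given RA alone and 44.5 ± 3.39 CPM in untreated day 9 cells (log2 1.10, adjusted p = 5.2e-11). PDK4, a kinase of the same complex, averaged 1.11 ± 0.376 CPM with the RA pulse before CHIR99021 and BMP4 and 6.03 ± 1.06 CPM without it (log2 -2.34, adjusted p = 2.6e-06). Of 7 pentose phosphate genes, 4 rose and 2 fell with CHIR99021 and BMP4 after RA, against the same 32.1% and 32.3%. PGD averaged 298 ± 6.17 CPM with and 239.6 ± 23.3 CPM without RA before CHIR99021 and BMP4 (log2 0.32, adjusted p = 0.0023).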

How the data were processed

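RNA-seq of 18 libraries in 6 groups of 3 was used. Per the labels' protocols TruSeq stranded mRNA libraries were prepared from Nucleospin-extracted RNA. STAR 2.7.9 and the build GRCh38 are named in the submitters' processing notes. Which annotation, gene counter and strand setting were used is not given in the sources used here. Members that overlap other genes in the RefSeq annotation are therefore uncertain: HK1, PFKM, PFKP, PFKFB3, PFKFB4, ALDOA, TPI1, ENO1, ENO2, SLC2A1, SLC16A1, SLC16A3, PDK1, EGLN1, ANKRD37, P4HA2 and HIF1A.

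The authors deposited raw counts per gene and TPM per gene. Over 7718 genes the deposited TPM matched the counts after scaling by a factor per gene and per library, with residuals up to 7.98e-10 (log2). The gene lengths behind the factor per gene were not checked. Rows without a symbol held 0.00102% of counts.

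CPM were computed from the counts. In R 4.3.3, edgeR 4.0.16 fitted all 18 libraries (filterByExpr minimum count 10, TMM factors, robust quasi-likelihood) with a mean for each group. Benjamini-Hochberg adjustment ran over 15531 genes, and adjusted p-values below 0.05 were called. The median biological coefficient of variation was 8.52%. Replicates differed by more than counting noise (chi-square per gene 2.15 to 10.63). The fit was tested on simulated data. Groups came from the sample labels, and comparisons share groups, so no overlap between comparisons is given.

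Alternatives were RLE and upper-quartile factors, no filter, DESeq2 1.42.0, limma 3.58.1 on log2(TPM + 1) and log2(TPM + 0.1), a replicate block, only the groups compared, pseudogene counts added, a read-kind covariate, leaving out each library and, chosen after seeing the data, untreated day 6 replicate 2 alone.

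The members and lists were chosen with earlier results of these data known. Members named were 14 of central role plus, per comparison, the 3 largest rises and falls among called members whose higher group averaged at least 5 CPM. Further called members were added by role after their values were seen. Other lists give up to 3 called genes with the largest change. Promoter sequences are RefSeq's, on GRCh38.p14.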

Additional observations from a re-analysis of the deposited data

Results flagged for a closer look

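For 5 members the effect of RA differed between settings by a test of the difference itself (edgeR interaction term). With CHIR99021 and BMP4 following, the interaction term for the log2 response to RA was -3.35 for PFKP (adjusted p = 2.5e-11), -2.38 for SLC2A3 (adjusted p = 5.9e-11), -2.31 for PFKFB3 (adjusted p = 1.6e-11) and -2.16 for EGLN3 (adjusted p = 2.2e-05). The EGLN3 call was lost with the read kind as a covariate. At day 9 against day 6, the response to RA differed by 3.43 for PFKP (adjusted p = 1.7e-11), 3.30 for SLC2A3 (adjusted p = 3.9e-13), 2.55 for PFKFB3 (adjusted p = 4.9e-12) and -2.22 for HK2 (adjusted p = 3.8e-11). SLC2A3 carries the uncertainty of its near-identical copy SLC2A14. These are the 4 largest called values of each interaction, so that PFKP, SLC2A3 and PFKFB3 appear in both.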

How the results depend on the processing

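Changes of the named members kept direction and call in 86 of 86 cases under DESeq2, under RLE factors and with pseudogene counts added, and in 546 of 564 when 1 library was left out, the other 18 losing the call. The TPM scale moved the median of all genes by 0.196 (RA at day 6), 0.322 (RA at day 9), 0.234 (CHIR99021 and BMP4 without RA), -0.177 (untreated day 9 against day 6), -0.233 and 0.127 (the interactions) log2 units, and the share of calls that were higher became 74.7%, 73.3%, 79.7% and 28.2% in those 4 comparisons and 62.2% for RA before CHIR99021 and BMP4, against 51.9%, 50.0%, 49.1%, 51.3% and 48.9%. On it, with either pseudocount, 10 members rose and 5 fell with RA at day 6, 21 rose and 4 fell with RA at day 9, 5 rose with RA before CHIR99021 and BMP4 (5 also in a fit of only those groups), and 2 lay above 0 in the interaction with CHIR99021 and BMP4. With pseudocount 0.1, 5 lay below 0 in the interaction with day. GAPDH changed sign on the TPM scale with RA at day 6 (0.02) and day 9 (0.07).

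With the read-kind covariate, 2 members rose and 1 fell with RA at day 6, 3 rose and 0 fell at day 9, and 0 rose and 0 fell with CHIR99021 and BMP4 without RA. In that fit 4 fell at day 9 against day 6 in untreated cells, and 0 lay above and 3 below 0 in the interaction with CHIR99021 and BMP4. Over all genes that fit called 453 higher and 557 lower, 628 and 576, 58 and 84, 2534 and 2449, and 531 and 685 in these 5, so it removed calls well beyond the members. At an unadjusted p of 0.05 in the same edgeR fit, 2 fell with RA at day 9, 3 rose and 0 fell with CHIR99021 and BMP4 without RA, and 0 lay above 0 in that interaction; no other tool was run with the covariate. SLC16A1 with CHIR99021 and BMP4 without RA then changed sign (0.56), under an adjustment that rested mainly on untreated day 6 libraries. With untreated day 6 replicate 2 alone, whose spread is assumed to be that of the other groups, 4 fell at day 9 against day 6 in untreated cells and 5 lay below 0 in the interaction with day. The cause of these shifts was not tested.

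Leaving out 1 library gave 3 to 5 members that fell with CHIR99021 and BMP4 without RA. Same-numbered replicates deviated together (r over 0.1) in 4 of 45 pairs, all between groups without RA (r from 0.111 to 0.228). Differently numbered replicates were not compared, so these values do not settle whether the numbers pair samples. With the replicate block GAPDH with RA at day 6 had log2 -0.18 and was not called, the only named call lost. Members near the count filter, such as CA9, ANKRD37 and EGLN1, are limited by depth.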
